A study of Mus musculus with 100 samples.

Results

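Embryoid bodies are aggregates in which mouse embryonic stem cells (ESCs) differentiate into derivatives of several germ layers at once. The comparison described here is that of embryoid bodies on day 10 of differentiation, in 3 poly(A) RNA libraries chosen by their titles out of the 37 RNA count tables of the series (100 samples in all, with the other assays). One library came from the flox line, with the genotype Mll3-/-;Mll4flox/flox, and 2 came from KI lines, with the genotype Mll3-/-;Mll4KI/KI, numbered 27 and 48 in the titles and called clones 27 and 48 below. By these labels Mll3 (gene Kmt2c) is deleted in all 3 libraries, and flox and KI differ in Mll4 (gene Kmt2d). KI is not explained in the sample labels; since the title of the series names the methyltransferase activities of both proteins, it is read here as a knock-in that removes the activity of MLL4. The ESCs were kept in 2i and LIF medium, aggregated in hanging drops, and cultured without LIF from then on. Each KI line is 1 clone, flox has 1 library at this day, and nothing in the labels says whether the lines were differentiated side by side. There was therefore no test: a gene is called higher where each clone reached 2-fold or more above flox and lower where each reached 2-fold or more below it, and the distance between the clones is the only spread available. Both clone ratios share the same flox library, so an unusual value in that library would enter both. Which genes and gene groups depart from flox in both clones, and where the clones part, is the question these libraries address.

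MLL3 and MLL4 are related histone methyltransferases that sit in a complex with UTX, PTIP and NCOA6, bind enhancers and place H3K4me1 there. Embryoid bodies pass through a primitive-streak-like stage before they form beating heart muscle, endothelium, blood, endoderm and some neural cells, and an outer layer of extraembryonic endoderm with its basement membrane often surrounds them. Heart muscle is recognised by its sarcomere proteins, the epicardium and mesothelium by uroplakins and Wt1, and definitive and visceral endoderm by the FOXA and SOX17 factors and by secreted plasma proteins.

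Levels are given as CPM, the read count of a gene scaled to a common total of gene-level reads in each library, with 1 RefSeq transcript per gene, and always in the order flox, clone 27, clone 48. Ratios are log2 of (CPM + 0.5) in a clone over (CPM + 0.5) in flox, given in the order clone 27, clone 48, and they understate the difference of genes with low levels. The 3 libraries held 25782419, 19554775 and 24008663 gene-level reads, so that 3 reads correspond to 0.116, 0.153 and 0.125 CPM. Of 23109 gene entries, 14589 reached 1 CPM in at least 1 of the 3 libraries and are called measured. Core pluripotency genes were low in all 3 libraries: Pou5f1 was at 3.41, 12.3 and 6.96 CPM, against 1478, 1392 and 1429 CPM in the ESCs on day 0, and Nanog was at 0.659, 2.15 and 1.62 CPM against 423, 363 and 409 CPM.

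Kmt2d was at 204 CPM in flox, 253 CPM in clone 27 and 221 CPM in clone 48, and Kmt2c was at 62.4 CPM in flox, 66.7 CPM in clone 27 and 52.4 CPM in clone 48. Neither gene was 2-fold from flox in a clone. Because each has 1 value per transcript, reads from an altered or partly deleted transcript still count, and these levels do not check the genotype labels. None of the 10 listed members of the MLL3/MLL4 complex was called, and their median log2 ratios were 0.19 in clone 27 and -0.06 in clone 48.

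In day 10 embryoid bodies 511 of the 14589 measured genes (3.5%) were at least 2-fold higher in both KI clones, and 571 (3.91%) were at least 2-fold lower. At 4-fold the numbers were 109 and 125. The counts depend on the 0.5 CPM added to each value before a ratio: with 2 CPM added 303 genes were higher and 324 lower. The median log2 ratio over all measured genes was 0.01 for each clone. The genes just inside and outside the 2-fold limit were Tmem51 (1.14 and 1.00) and Slain1 (1.36 and 0.99) on the higher side, and Antxr1 (62.0, 22.0 and 30.7 CPM) and Rasl10b (18.2, 6.09 and 8.83 CPM) on the lower side. Each clone taken alone gave more calls: clone 27 was 2-fold higher at 722 genes and lower at 1110, clone 48 at 880 and 729. In the plot of both clones' ratios, heart muscle and mesothelial genes lie at the lower left, endoderm and interferon-stimulated genes at the upper right, and several leukocyte genes off the diagonal.

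**Figure D1:**
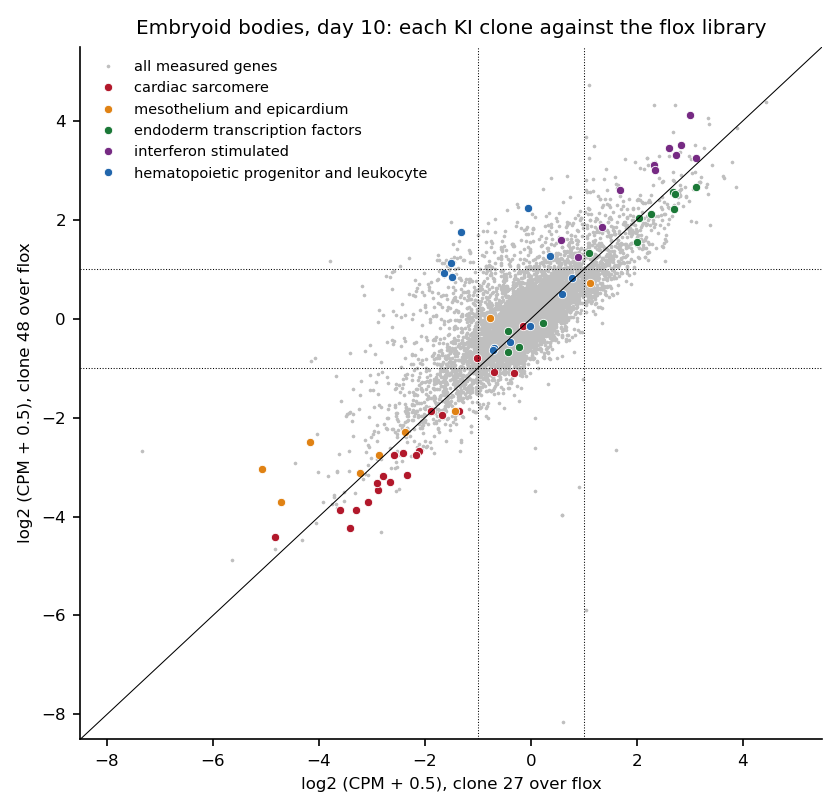
Each point is 1 of the 14589 measured genes; the x axis is the log2 ratio of clone 27 to flox and the y axis that of clone 48, with 0.5 CPM added. Dotted lines mark 2-fold, the solid line marks equal ratios, and coloured points are members of 5 gene lists; 17 of 21 sarcomere genes lie beyond 2-fold in the lower left corner and 9 of 11 interferon-stimulated genes beyond 2-fold in the upper right.

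Of the 42 gene lists examined, those of the heart muscle sarcomere and of the mesothelium had the lowest medians in both clones. Of 21 cardiac sarcomere genes, all measured, 17 were called lower and 0 higher, and the list median was -2.42 in clone 27 and -2.76 in clone 48, against 0.01 in each clone over all measured genes and a background of 3.91% of genes called lower. Myh6, the alpha myosin heavy chain of heart muscle, was at 1004 CPM in flox, 119 CPM in clone 27 and 76.9 CPM in clone 48 (-3.07 and -3.70). Myh7, the beta heavy chain, was at 435, 101 and 67.7 CPM, and reads of these neighbouring and near-identical genes can be split between them by the counting. Actc1, cardiac actin, was at 420.1, 42.1 and 28.4 CPM (-3.30 and -3.86), and Myl7, the atrial regulatory light chain, at 288, 23.2 and 19.4 CPM (-3.61 and -3.86). For each of these 4 genes the KI clones lay close to each other and far below flox. The light chain Myl4 (205, 29.1 and 22.1 CPM) and troponin T gene Tnnt2 (158, 34.9 and 23.1 CPM) followed the same order, and the ventricular light chain Myl2 had the largest difference of the list, at 31.3, 0.614 and 1.00 CPM (-4.84 and -4.41). Scaled for transcript length as well, in the deposited RPKM values, Myl7 was at 388, 31.7 and 26.3, Actc1 at 239.9, 24.4 and 16.4 and Myh6 at 131, 15.8 and 10.1. The 4 members not called were Tnnc1 (-0.69 and -1.08), Mybpc3 (-1.02 and -0.79), Nebl (-0.32 and -1.09) and Tpm1 (-0.15 and -0.14), a tropomyosin gene with 1219, 1098 and 1105 CPM that is also made outside heart muscle. Since these are bulk samples, fewer heart muscle cells and less of these RNAs per cell cannot be told apart.

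The 4 called sarcomere genes with the highest flox level are Myh6, Myh7, Actc1 and Myl7, and the 250 bases before their starts are printed because the search of promoter motifs concerned this group. The sequences are RefSeq's (build GRCm38.p6), 5′ to 3′ on the gene's strand, which is the minus strand for all 4, with motif matches on either strand in capitals.
Myh6, chr14:54966608-54966857: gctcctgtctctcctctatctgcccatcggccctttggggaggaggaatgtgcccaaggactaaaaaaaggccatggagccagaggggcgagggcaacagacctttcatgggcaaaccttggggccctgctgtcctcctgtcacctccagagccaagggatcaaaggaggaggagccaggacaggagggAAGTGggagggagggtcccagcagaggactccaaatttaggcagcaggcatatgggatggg
Myh7, chr14:54994627-54994876: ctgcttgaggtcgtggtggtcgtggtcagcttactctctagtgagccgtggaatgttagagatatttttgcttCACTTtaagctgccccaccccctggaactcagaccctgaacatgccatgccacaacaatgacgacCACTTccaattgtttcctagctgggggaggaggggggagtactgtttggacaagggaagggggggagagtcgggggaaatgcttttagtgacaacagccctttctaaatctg
Actc1, chr2:114052876-114053125: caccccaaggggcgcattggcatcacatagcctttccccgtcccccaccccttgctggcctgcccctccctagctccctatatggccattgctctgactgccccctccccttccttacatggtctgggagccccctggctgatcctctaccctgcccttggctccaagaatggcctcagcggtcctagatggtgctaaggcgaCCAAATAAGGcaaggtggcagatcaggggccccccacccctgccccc
Myl7, chr11:5898783-5899032: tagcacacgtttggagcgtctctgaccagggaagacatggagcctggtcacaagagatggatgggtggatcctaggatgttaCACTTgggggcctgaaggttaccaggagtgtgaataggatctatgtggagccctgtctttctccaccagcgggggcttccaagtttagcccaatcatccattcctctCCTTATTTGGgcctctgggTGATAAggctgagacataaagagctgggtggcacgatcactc
The motifs searched were those of GATA factors (AGATAA or TGATAA), NKX factors (AAGTG) and T-box factors (AGGTGT), and the CArG box bound by SRF. Of the 26 cardiac genes called lower, 22 had a promoter in the table, and Tbx5, Tcap and Kcnq1 were among those without one. The CArG box was found in 5 of the 22 (22.7%), Actc1, Myl3, Myl7, Ldb3 and Myom1, against 1.19% of the 11191 measured genes with a promoter. The GATA motif was found in 7 (31.8%, against 9.07% of all), the NKX motif in 8 (36.4%, against 37.2%) and the T-box motif in 3 (13.6%, against 9.49%). Motifs can overlap one another and did not do so in the 4 promoters shown. A match describes these letters in this window and shows no binding, and the list was chosen with its direction known.

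Genes of the heart's electrical and calcium handling were lower as well. Of 16 listed genes 14 were measured, 7 were called lower and 1 higher, with a median of -1.34 in clone 27 and -1.30 in clone 48. The ryanodine receptor gene Ryr2 was at 78.3, 21.9 and 22.0 CPM, the sodium-calcium exchanger gene Slc8a1 at 168, 52.5 and 46.6 CPM, and the pacemaker channel gene Hcn4 at 62.8, 14.9 and 13.8 CPM. The small heat shock gene Hspb7, active in heart muscle, was at 68.1, 8.64 and 9.16 CPM. Phospholamban, encoded by Pln, was at 7.64, 2.76 and 1.00 CPM, and the potassium channel gene Kcnq1 was also called lower, at 1.82, 0.409 and 0.250 CPM. The natriuretic peptide genes were low and not below flox: Nppb, the member called higher, was at 1.16, 4.24 and 3.33 CPM, and Nppa at 0.659, 1.23 and 2.21 CPM. The calcium pump gene Atp2a2, which other cell types also use, was at 816, 525 and 415 CPM.

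The transcription factors that specify the heart did not show the size of difference seen in the sarcomere. Of 16 cardiac transcription factors, all measured, 2 were called lower and 1 higher, and the median was -0.19 in clone 27 and -0.47 in clone 48. Tbx5 was lower, at 52.0 CPM in flox, 7.52 CPM in clone 27 and 12.6 CPM in clone 48 (-2.71 and -2.01), and so was Gata5, at 44.7, 2.97 and 3.33 CPM (-3.71 and -3.56). Tbx3, a T-box repressor that acts in the conduction system and in other tissues, was higher, at 30.7, 175 and 84.4 CPM (2.49 and 1.45). The remaining 13 factors were not called. Among them Gata6 was at 362, 269 and 304 CPM, Gata4 at 356, 304 and 239 CPM, Hand2 at 228, 376 and 462 CPM, Tbx20 at 179, 205 and 185 CPM and Hand1 at 108, 193 and 139.7 CPM. For Gata4 and Gata6 both clones were below flox by less than 2-fold, and for Hand1 and Hand2 both were above it. Nkx2-5, a homeobox gene of heart progenitors, was at 20.5, 12.4 and 10.2 CPM (-0.71 and -0.97), short of the limit in both clones. Several of these factors also serve endoderm, smooth muscle and mesenchyme, so their levels are not those of heart cells alone.

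Most listed genes of the mesothelium and epicardium, the sheets that cover the body cavity and the heart, were lower by a like amount. Of 10 listed genes, all measured, 7 were called lower and 0 higher, with a median of -2.62 in clone 27 and -2.39 in clone 48. The uroplakin gene Upk3b was at 209 CPM in flox, 5.73 CPM in clone 27 and 25.2 CPM in clone 48 (-5.08 and -3.03). Upk1b (38.0, 1.64 and 6.33 CPM) and the complement gene C3 (26.2, 0.511 and 1.54 CPM) were likewise low in both clones, and for all 3 genes clone 27 was at least 2-fold below clone 48. The epicardial T-box gene Tbx18 was at 61.0, 6.09 and 6.54 CPM, and Aldh1a2, which makes retinoic acid, at 38.8, 7.11 and 7.54 CPM; the clones did not differ by 2-fold there. Lrrn4 was at 32.0, 11.5 and 8.37 CPM. The 3 members not called were Tcf21, Sema3d and Gpm6a. In the deposited RPKM values Tcf21 was at 15.4, 9.02 and 15.6, close to flox in clone 48, and Sema3d at 2.75, 1.71 and 1.81. Gpm6a lay above flox in both clones, at 0.729, 1.74 and 1.30. Msln, which encodes mesothelin, had 81 reads in flox, 0 in clone 27 and 1 in clone 48, that is, at least 20.5-fold lower in clone 27, with 3 reads as the floor of that library, and 75.4-fold lower in clone 48, with an exact 95% interval of 13.2 to 3016 that covers counting error only. Wt1, of the lateral plate and intermediate mesoderm list, marks mesothelium too and was at 148, 14.1 and 28.2 CPM (-3.35 and -2.37).

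Other mesodermal genes were split. Of 8 measured paraxial mesoderm and somite genes, 4 were called lower (background 3.91%) and 0 higher (background 3.5%). Pax1, which patterns the sclerotome, was at 11.2, 0.205 and 0.167 CPM (-4.05 and -4.13), Foxc2 at 51.3, 13.9 and 12.2 CPM, Pax9 at 3.06, 0.358 and 0.292 CPM and Pax3 at 2.44, 0.614 and 0.875 CPM. The cartilage collagen genes Col9a1 (36.0, 2.35 and 2.21 CPM) and Col2a1 (127, 48.5 and 42.1 CPM) were also called lower, 2 of 4 measured cartilage and bone genes. Runx2 of that list lay above flox in both clones, at 0.781, 1.13 and 1.12 in the deposited RPKM values, and was not called. Within the lateral plate and intermediate mesoderm list (12 measured), Wt1, Foxd1 (20.1, 1.13 and 0.958 CPM) and Prrx2 (37.1, 6.75 and 9.87 CPM) were called lower, whereas Tbx4, a T-box gene of the hindlimb and allantois, was higher at 13.8, 82.1 and 62.0 CPM (2.53 and 2.13). Among 8 measured primitive streak genes, Eomes (3.22, 16.5 and 13.7 CPM), Evx1 (1.90, 17.5 and 14.8 CPM) and Wnt3 (2.33, 15.1 and 11.7 CPM) were called higher, and T, also known as Brachyury (4.42, 1.18 and 1.12 CPM), Fgf8 (3.03, 0.972 and 0.916 CPM) and Wnt3a (1.59, 0.102 and 0 CPM) lower. Evx1 overlaps an antisense gene, Evx1os, and strand use in the counting is not given in the sources used here, so their reads cannot be told apart.

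Of 11 smooth muscle genes 3 were called higher (background 3.5%) and 2 lower (background 3.91%), with a median of 0.31 in clone 27 and 0.56 in clone 48. Smooth muscle actin gene Acta2 was at 794 CPM in flox, 1853 CPM in clone 27 and 1935 CPM in clone 48, the enteric actin gene Actg2 at 23.7, 51.0 and 105 CPM and the smooth muscle myosin gene Myh11 at 1.78, 6.29 and 7.0 CPM. The members called lower were Des (75.8, 17.2 and 33.1 CPM), whose product desmin is also a heart muscle protein, and Mylk (12.1, 2.86 and 5.25 CPM). In the endothelium list 2 of 15 genes were called lower, Sox18 (18.3, 7.98 and 6.79 CPM) and Etv2 (1.51, 0.256 and 0.208 CPM), and 0 higher. Of the 15, 11 lay below flox in both clones, with medians of -0.47 in clone 27 and -0.75 in clone 48. The receptor gene Kdr (237, 179 and 172 CPM), the cadherin gene Cdh5 (121, 128 and 76.2 CPM) and Tek (98.5, 55.8 and 62.1 CPM) were not called. None of 10 measured primitive erythroid genes was called, with a median of -0.46 in clone 27 and -0.62 in clone 48; the embryonic globin gene Hba-x was at 179.7, 107 and 81.9 CPM, and the summed level of the list was 765, 453 and 490.5 CPM. Of the skeletal muscle list, 10 of 11 genes stayed below 1 CPM in all 3 libraries, so that the sarcomere genes above were not accompanied by skeletal muscle factors.

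The endoderm program was higher in KI. Of 14 endoderm transcription factors 12 were measured, 8 were called higher and 0 lower, and the median was 2.02 in clone 27 and 1.80 in clone 48, against a background of 3.5% of genes called higher. Sox17, which specifies endoderm and also serves endothelium, was at 19.5 CPM in flox, 129 CPM in clone 27 and 92.7 CPM in clone 48 (2.70 and 2.22). Foxa2, a pioneer factor of endoderm, was at 7.49, 37.9 and 34.3 CPM, and Foxa1 at 12.1, 49.7 and 36.5 CPM. Hnf4a, which directs hepatic and visceral endoderm genes, was at 4.73, 34.2 and 29.5 CPM (2.73 and 2.52). In each of these genes both clones stood well above the flox value, and clone 27 stood somewhat above clone 48. Hhex (9.31, 20.7 and 24.3 CPM) and Foxa3 (1.78, 14.2 and 13.0 CPM) were also called higher. The list's 4 measured members that were not called were Gata4 and Gata6, given above, Sox7 (14, 10.3 and 8.54 CPM) and Prox1 (13.5, 16.1 and 12.8 CPM).

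Secreted and absorptive products of visceral endoderm, the epithelium that feeds the early embryo, were mostly above flox too. Of 18 listed secreted-protein genes 12 were measured, 7 were called higher and 0 lower, with a median of 1.43 in clone 27 and 1.40 in clone 48. The retinol carrier gene Rbp4 was at 59.4 CPM in flox, 344 CPM in clone 27 and 261 CPM in clone 48 (2.52 and 2.13). Transthyretin, encoded by Ttr, was at 10.0, 74.2 and 64.6 CPM, apolipoprotein B, encoded by Apob, at 91.7, 262 and 221 CPM, and the trypsin inhibitor gene Spink1 at 11.6, 53.7 and 36.4 CPM. Cyp26a1, which breaks down retinoic acid, was at 14.7, 38.5 and 42.6 CPM, and the fibrinogen gene Fgb at 2.13, 14.6 and 8.96 CPM. Afp, a widely used marker of visceral endoderm, was at 10.4, 16.4 and 26.4 CPM (0.63 and 1.30) and was not called, and Apoe, which many cells make, was at 409.7, 689 and 599 CPM. Alb, Apoa2, Apoa4, Fga and Fgg stayed below 1 CPM in all 3 libraries, so the products of yolk sac or liver were present in part.

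Of 6 genes for uptake by visceral endoderm, 4 were called higher. Dab2, an endocytic adaptor, was at 88.4, 538 and 426 CPM (2.60 and 2.26), the metal transporter gene Slc39a8 at 19.9, 80.3 and 71.6 CPM, the protease gene Ctsh at 7.52, 29.0 and 26.6 CPM and Amn, which encodes the partner of cubilin, at 0.582, 8.08 and 10.1 CPM (2.99 and 3.30). The receptor genes Lrp2 (126, 124 and 91.4 CPM) and Cubn (2.60, 3.73 and 4.54 CPM) were not called. Most basement membrane genes were not called: of 13, the collagen IV genes Col4a1 (807, 2308 and 2419.9 CPM) and Col4a2 (664, 1899 and 1846 CPM) and the laminin gene Lama1 (245, 734 and 804 CPM) were called higher (background 3.5%) and 0 lower. Lamb1 (586, 1202 and 1052 CPM) was above flox in both clones without reaching 2-fold in both. Of 7 measured gut and lung epithelium genes 4 were called higher, namely Cdx2 (2.06, 14.4 and 7.29 CPM), Vil1 (3.22, 17.2 and 18.7 CPM), Muc13 (1.36, 9.92 and 6.96 CPM) and Cldn6 (52.0, 259 and 202 CPM), and 0 lower. The other 3 measured genes of that list went the other way, below flox in both clones without reaching 2-fold in both.

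Most epithelial and stem cell genes were not called (background 3.5% called higher). Most measured members of the epithelial, general and naive pluripotency and trophoblast lists nevertheless lay above flox in both clones. The epithelial adhesion genes Cdh1 (88.9, 246 and 204 CPM) and Epcam (34.6, 116 and 99.4 CPM) were called higher among 12 measured simple and surface epithelium genes, and Grhl3 (22.5, 8.59 and 10.7 CPM) lower; the keratin genes Krt8 (340.0, 767 and 538 CPM) and Krt18 (277, 751 and 434 CPM) passed 2-fold in clone 27 alone. Of 8 measured general pluripotency genes 2 were called higher, Sall4 (23.8, 84.6 and 58.4 CPM) and L1td1 (3.49, 16.6 and 14.4 CPM), and of 10 measured naive pluripotency genes 2, Klf4 (38.8, 104 and 94.4 CPM) and Tdh (2.29, 17.7 and 13.3 CPM). Pou5f1, at 1.71 and 0.93 from flox, was not called. Above flox in both clones were 7 of the 8 general genes (medians 1.52 and 0.81) and 9 of the 10 naive genes (1.15 and 0.37). Among trophoblast genes Plac1 (1.90, 16.1 and 12.8 CPM), Cdx2 and Eomes were called higher (8 measured), while Elf5, Ascl2, Prl3d1, Prl2c2, Tpbpa and Gcm1 stayed below 1 CPM in all 3 libraries. The Hedgehog ligand gene Ihh, made by visceral and gut endoderm, was at 3.65, 28.5 and 24.4 CPM (2.81 and 2.59), and Hhip, a target that binds the ligand, at 23.9, 99.5 and 99.4 CPM; the other 6 measured genes of that pathway, among them Ptch1 (101, 146 and 127 CPM) and Gli1 (37.1, 68.1 and 63.7 CPM), were not called.

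**Figure D2:**
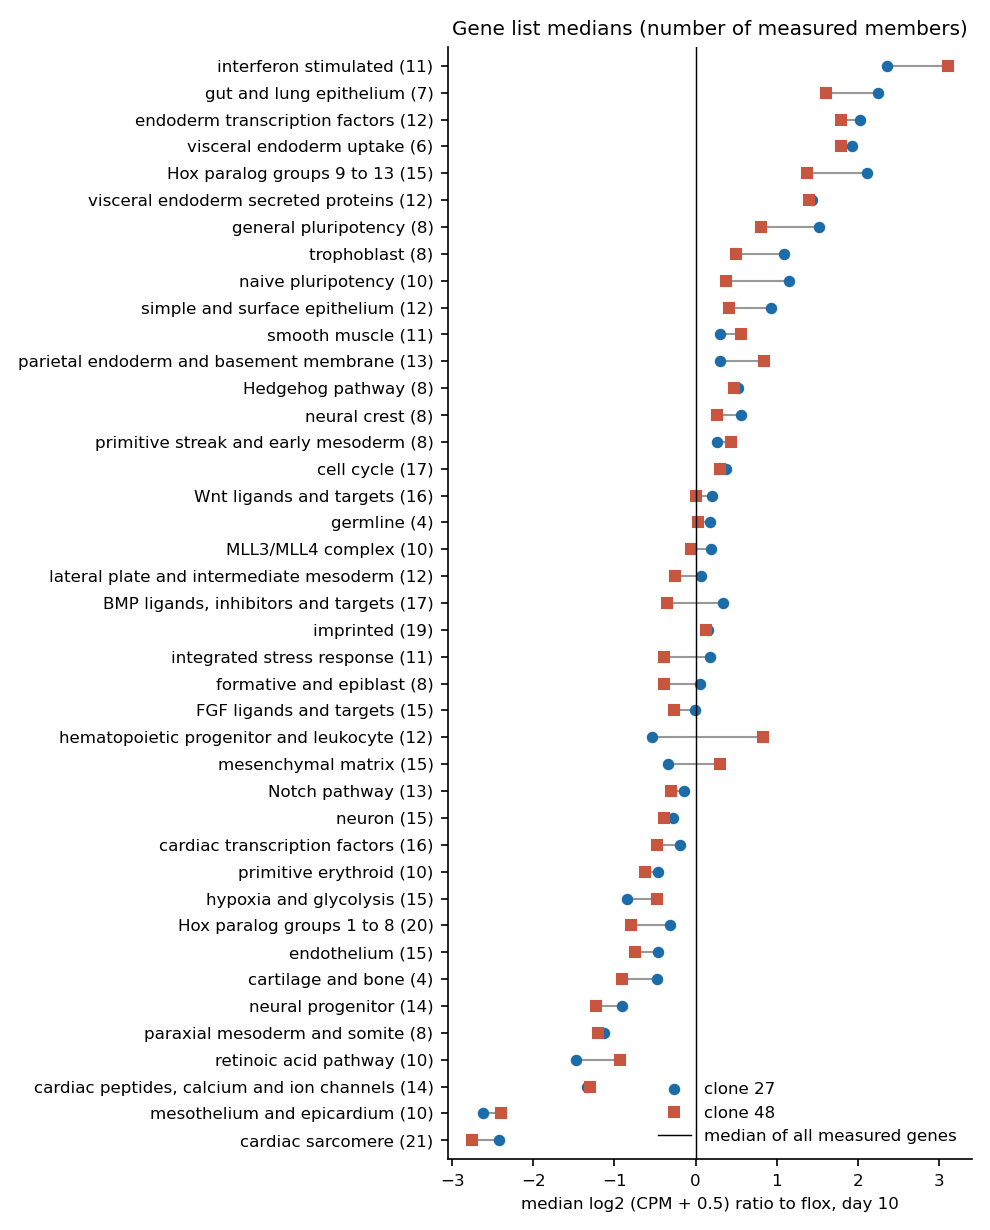
Each row is a gene list with at least 4 measured members (their number in parentheses); the x axis is the median log2 ratio to flox in clone 27 (circles) and clone 48 (squares), and the vertical line is the median of all measured genes. The sarcomere and mesothelium lists lie lowest in both clones, the interferon, gut, endoderm transcription factor and visceral endoderm uptake lists are among the highest, and the clones lie on opposite sides of 0 for the leukocyte and mesenchymal matrix lists, among others.

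Neural progenitor genes lay below flox more often than above it. Of 14 measured neural progenitor genes 5 were called lower, among them Zic1 (13.7, 1.18 and 1.08 CPM), En2 (2.37, 0.460 and 0.417 CPM), Sox1 (2.06, 0.358 and 0.125 CPM) and Fabp7 (1.59, 0 and 0.292 CPM), and 2 higher, Sox3 (3.92, 64.1 and 27.6 CPM) and En1 (2.06, 5.47 and 5.54 CPM). The neuronal gene Dcx was lower at 2.75, 0.460 and 0.333 CPM and Neurod1 higher at 0.194, 1.48 and 2.04 CPM, and 13 of the 15 measured neuronal genes were not called. In the neural crest list Tfap2a was higher (2.60, 13.8 and 6.58 CPM) and Ngfr lower (45.7, 9.61 and 11.8 CPM) among 8 measured genes. Retinoic acid pathway genes had a median of -1.48 in clone 27 and -0.93 in clone 48: the binding protein genes Crabp1 (19.2, 3.17 and 2.17 CPM) and Crabp2 (22.5, 4.65 and 3.29 CPM), the uptake receptor gene Stra6 (2.56, 0.511 and 0.958 CPM) and Cyp26c1 (2.06, 0.460 and 0.666 CPM) were called lower, 4 of 10, and 0 higher. Of the enzymes that make and break down retinoic acid, Aldh1a2 (lower) and Cyp26a1 (higher) were counted in the mesothelium and visceral endoderm lists instead.

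Signalling genes gave calls of some members rather than of whole pathways. Over all measured genes 3.91% were called lower and 3.5% higher. Among 16 measured Wnt genes, Wnt11 (48.1, 13.8 and 21.8 CPM), Rspo1 (12.2, 0.716 and 2.54 CPM), Rspo2 (5.55, 1.84 and 1.67 CPM) and Wif1 (2.33, 0.460 and 0.208 CPM) were called lower and 0 higher. More of the 16 lay above flox in both clones (8) than below it (4), and the medians were 0.197 in clone 27 and 0.004 in clone 48. That list leaves out Wnt3 and Wnt3a, counted among primitive streak genes and called higher (2.33, 15.1 and 11.7 CPM) and lower (1.59, 0.102 and 0 CPM), and Wnt1, which was lower and is described below. Axin2, a general readout of Wnt signalling, was at 21.5, 37.8 and 24.8 CPM. Of 17 BMP genes Bmp7 (38.4, 12.4 and 12.2 CPM) and Bmp10 (8.57, 0.869 and 1.46 CPM), the latter made by heart muscle, were called lower; the targets Id1 (93.3, 125 and 72.5 CPM) and Id3 (141, 170.4 and 97.1 CPM) lay on opposite sides of flox in the 2 clones by less than 2-fold. Of 15 measured FGF genes, Fgf10 (49.2, 15.6 and 18.3 CPM), Fgf1 (10.9, 0.614 and 2.50 CPM), Fgf15 (6.90, 2.97 and 1.54 CPM) and Fgf18 (2.40, 0.614 and 0.791 CPM) were called lower, and Fgfr4, a receptor of endoderm and liver, higher at 2.48, 22.3 and 16.2 CPM (2.94 and 2.49). In the Notch pathway the target Hey1 (36.1, 11.4 and 7.83 CPM) was lower and the ligand gene Dll1 (2.52, 8.18 and 8.62 CPM) higher out of 13. With 1 call in each direction, that list lay near the share of all genes.

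The Hox genes, which give cells their position along the body axis, divided by paralog group. These 2 lists were drawn up after values had been seen. Of 20 measured genes of groups 1 to 8, 8 were called lower and 0 higher, with a median of -0.32 in clone 27 and -0.79 in clone 48. Of 15 measured genes of groups 9 to 13, 10 were called higher and 0 lower, with a median of 2.11 in clone 27 and 1.37 in clone 48. Hoxb2 was at 56.5, 13.8 and 13.4 CPM, Hoxb3 at 35.1, 11.6 and 11.4 CPM and Hoxb4 at 23.8, 5.93 and 9.54 CPM, and Hoxa2, Hoxa3, Hoxa4, Hoxa5 and Hoxb1 were the other genes called lower. Hoxa11 was at 1.94, 30.1 and 17.0 CPM (3.65 and 2.85), Hoxa10 at 2.17, 26.0 and 16.5 CPM, Hoxd13 at 1.47, 20.1 and 6.91 CPM and Hoxa13 at 1.01, 11.8 and 13.7 CPM. The flox levels of the posterior genes were low: the whole list summed to 37.5, 164 and 95.8 CPM, and Hoxc12 had 0 reads in flox, so that it was at least 11.9-fold higher in clone 27 and at least 6.80-fold higher in clone 48, with 3 reads as the floor. In the plot by paralog group the division is within the Hoxa cluster itself, and in Hoxd the clones differ most, with clone 27 above clone 48 at Hoxd11 (2.55 and 1.58), Hoxd12 (2.53 and 1.16) and Hoxd13 (3.38 and 1.91).

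**Figure D3:**
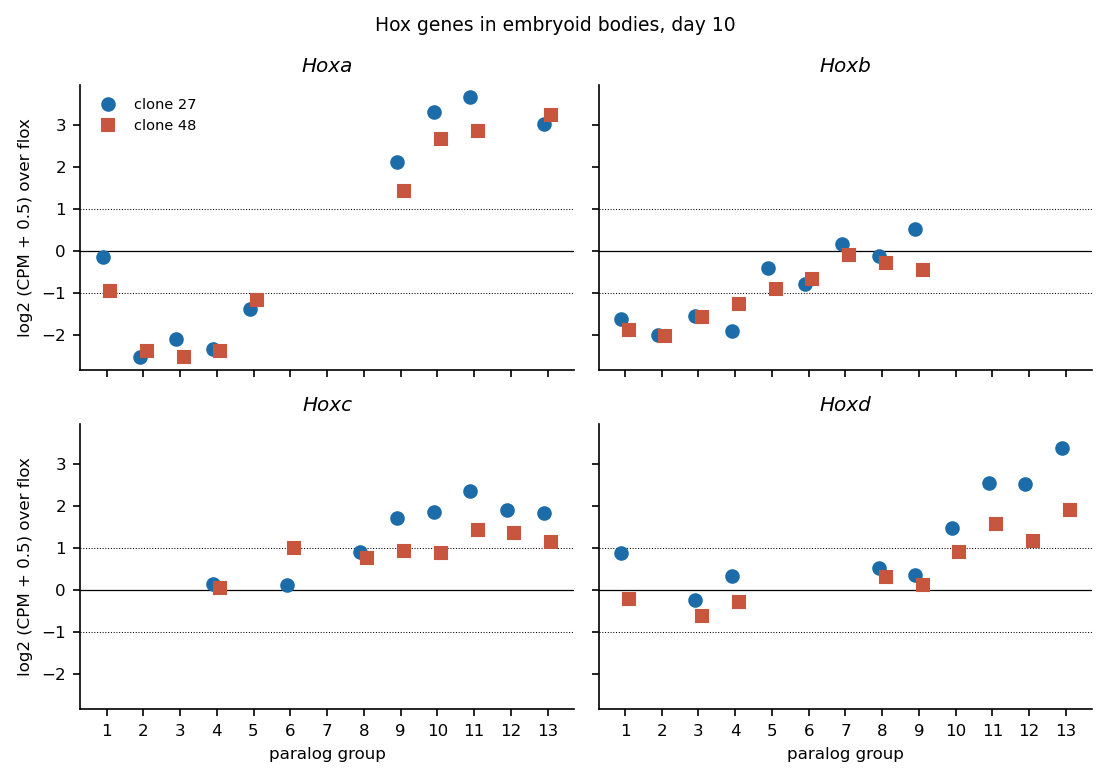
Log2 ratio to flox (y axis, 0.5 CPM added) of each measured Hox gene at day 10 by paralog group (x axis), with 1 panel per cluster, circles for clone 27 and squares for clone 48; dotted lines mark 2-fold. In Hoxa, groups 2 to 5 lie below the lower line and groups 9 to 13 above the upper line in both clones.

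Interferon-stimulated genes, which defend against viruses, had the highest list median in both clones. Of 11 genes, all measured, 9 were called higher and 0 lower, with a median of 2.35 in clone 27 and 3.11 in clone 48. Bst2 was at 21.1 CPM in flox, 54.4 CPM in clone 27 and 78.3 CPM in clone 48, Isg15 at 3.96, 29.2 and 44.0 CPM (2.74 and 3.32), Ifit1 at 1.86, 18.6 and 40.6 CPM (3.01 and 4.12), Usp18 at 3.49, 19.9 and 31.9 CPM and Rsad2 at 2.29, 23.8 and 26.2 CPM. Samd9l (3.41, 5.32 and 11.2 CPM) was above flox in both clones and passed 2-fold in clone 48 alone. Clone 48 was above clone 27 at all 11 genes. The antiviral genes Ifi44 (0.465, 9.31 and 15.6 CPM) and Gbp3 (1.09, 13.0 and 17.7 CPM), outside the list, were among the 12 leading genes of the higher direction. Ifit genes are near-identical in part, so reads can be split between them. The leukocyte list, described below, summed to 215, 174 and 344 CPM, with 9 of its 12 measured genes below flox in clone 27; its part in the interferon result was not tested.

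Several programs had few or no calls. None of 17 cell cycle genes and none of 11 integrated stress response genes was called, with medians of 0.37 in clone 27 and 0.30 in clone 48 for the former and 0.17 in clone 27 and -0.39 in clone 48 for the latter; 15 of the 17 cell cycle genes lay above flox in both clones by less than 2-fold in at least 1. Of 15 hypoxia and glycolysis genes 2 were called lower, Pdk1 (82.3, 24.8 and 38.7 CPM) and Car9 (2.79, 0.511 and 0.833 CPM), with a median of -0.84 in clone 27 and -0.47 in clone 48, and 13 of the 15 lay below flox in both clones, Pgk1 for example at 908, 464 and 602 CPM. Among 4 measured germline genes 0 were called, and among 8 formative and epiblast genes 1, the ligand gene Nodal, which was higher at 1.51, 4.55 and 3.58 CPM. Of 19 measured imprinted genes 1 was called, Phlda2, higher at 5.93, 21.4 and 13.7 CPM; the growth factor gene Igf2, the most abundant of that list, was at 8743, 3203 and 4529 CPM (-1.45 and -0.95).

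Of the 24 genes that led both directions by the smaller of the 2 ratios, several belong to the groups above and others do not. On the higher side Klb, the coreceptor for endocrine FGFs in liver and fat, was at 0.892 CPM in flox, 29.8 CPM in clone 27 and 28.7 CPM in clone 48 (4.44 and 4.39). Cited1, a transcriptional cofactor present in the yolk sac, was at 4.38, 72.1 and 70.6 CPM (3.89 and 3.86), the calcium-binding protein gene S100g at 0.272, 7.42 and 11.4 CPM, the pepsinogen gene Pga5 at 1.67, 20.5 and 23.3 CPM and Sh2d4a at 0.465, 9.82 and 7.87 CPM. Xlr3a, of a family of near-identical X-linked copies whose reads can be split, was at 0.737, 16.7 and 10.7 CPM. On the lower side the scavenger receptor gene Marco was at 34.8 CPM in flox, 0.205 CPM in clone 27 and 0.708 CPM in clone 48 (-5.65 and -4.87). The calcium channel subunit gene Cacna2d2 was at 47.0, 1.18 and 1.37 CPM (-4.83 and -4.66), and Fxyd1, which encodes a regulator of ion transport, was at 12.2, 0.460 and 0.541 CPM. Wnt1 had 161 reads in flox and 0 in both clones and was at least 40.7-fold lower in clone 27 and at least 50.0-fold lower in clone 48. Eef1a2, the elongation factor of muscle and neurons, had 183, 0 and 2 reads, at least 46.3-fold lower in clone 27 and 85.2-fold lower in clone 48 (exact 95% interval of counting error 23.3 to 709).

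The clones differed from each other as well. Of the measured genes 703 (4.82%) were at least 2-fold apart between clones 27 and 48, of which 634 were higher in clone 48 and 69 in clone 27. By the same rule for 1 pair of libraries, 1832 genes were 2-fold from flox in either direction in clone 27 and 1609 in clone 48. At 35 genes (0.24%) the clones lay at least 2-fold from flox on opposite sides, and of the 1082 called genes 94 were 2-fold apart between the clones. Leukocyte genes were prominent among them: Lyz2, lysozyme of macrophages, was at 20.5 CPM in flox, 2.91 CPM in clone 27 and 40.1 CPM in clone 48, Mpeg1 at 14.4, 1.74 and 26.7 CPM, the complement gene C1qb at 7.06, 0.358 and 10.1 CPM, Slc11a1 at 11.1, 1.43 and 22.2 CPM and Fcrls at 1.47, 3.73 and 51.6 CPM. In the hematopoietic progenitor and leukocyte list 0 of 12 measured genes were called, and the medians were -0.54 in clone 27 and 0.84 in clone 48, with 5 genes 2-fold apart between the clones. The pan-leukocyte gene Ptprc (10.6, 3.94 and 37.0 CPM) and Tyrobp (9.62, 3.07 and 21.7 CPM) lay on opposite sides of flox by 2-fold, whereas the progenitor genes Tal1 (9.23, 6.90 and 6.50 CPM) and Lmo2 (14.4, 8.80 and 9.45 CPM) did not differ between the clones. Marco is a macrophage receptor too, but it was low in both clones and did not follow Lyz2 in clone 48.

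Matrix genes of mesenchyme also separated the clones. In the mesenchymal matrix list 7 of 15 genes were 2-fold apart, and the medians were -0.34 in clone 27 and 0.30 in clone 48. The collagen genes Col1a1 (5003, 832 and 3670.2 CPM), Col1a2 (2074, 2062 and 5488 CPM) and Col6a1 (161, 44.5 and 217 CPM) were each higher in clone 48 than in clone 27, and Thy1 (1.01, 2.91 and 8.54 CPM) was the member called against flox. Fmod (26.3, 2.45 and 41.9 CPM), a collagen-binding proteoglycan gene, and Angptl7 (155, 0.460 and 23.7 CPM) were further apart than any listed matrix gene, and Angptl7 was also called lower (-7.34 and -2.68).

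Some differences between the clones were present in every culture. Meg3, a maternally expressed noncoding RNA of the imprinted Dlk1 region on chromosome 12, was at 355 CPM in flox, 539 CPM in clone 27 and 0.75 CPM in clone 48, and its neighbour Rian at 196, 405 and 2.83 CPM. In clone 48 Meg3 lay between 0 CPM and 3.86 CPM in the other 6 cultures with both clones (ESCs, day 4 embryoid bodies, neural progenitors, neurons, trophectoderm and extraembryonic endoderm cultures), and in clone 27 between 51.4 CPM and 2750.0 CPM. The paternally expressed Dlk1 of the same region was at 5495, 1763 and 4208 CPM. Peg13, an imprinted noncoding RNA on chromosome 15, had the reverse pattern, at 8.57, 0.153 and 20.0 CPM, and stayed under 1 CPM in clone 27 in the other 6 cultures. The Y-linked genes Ddx3y (109.8, 117 and 9.37 CPM), Uty (24.1, 25.5 and 3.54 CPM) and Kdm5d (6.59, 21.3 and 0.625 CPM) were low in clone 48 here and in each of those cultures. Of the 69 genes higher in clone 27, 9 were 2-fold apart in the same direction in all 6 other cultures and 54 in none; of the 634 higher in clone 48, 1 (Peg13) was so in all and 602 in none. Many of these genes were hardly detected elsewhere: 201 of the 634 and 7 of the 69 were under 1 CPM in both clones in all 6 other cultures, where a 2-fold difference could hardly be seen. Of the genes that reached 1 CPM in all 6, 92 of 96 higher in clone 48 and 13 of 25 higher in clone 27 were 2-fold apart in none. Of the 16 genes furthest apart, the leukocyte genes Lyz2, C1qb, Fcrls and Slc11a1 and the matrix genes Fmod and Angptl7 stayed under 1 CPM in both clones in all 6 other cultures, so that these cultures say nothing of them, and Mpeg1 reached 1 CPM in 3.

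**Figure D4:**
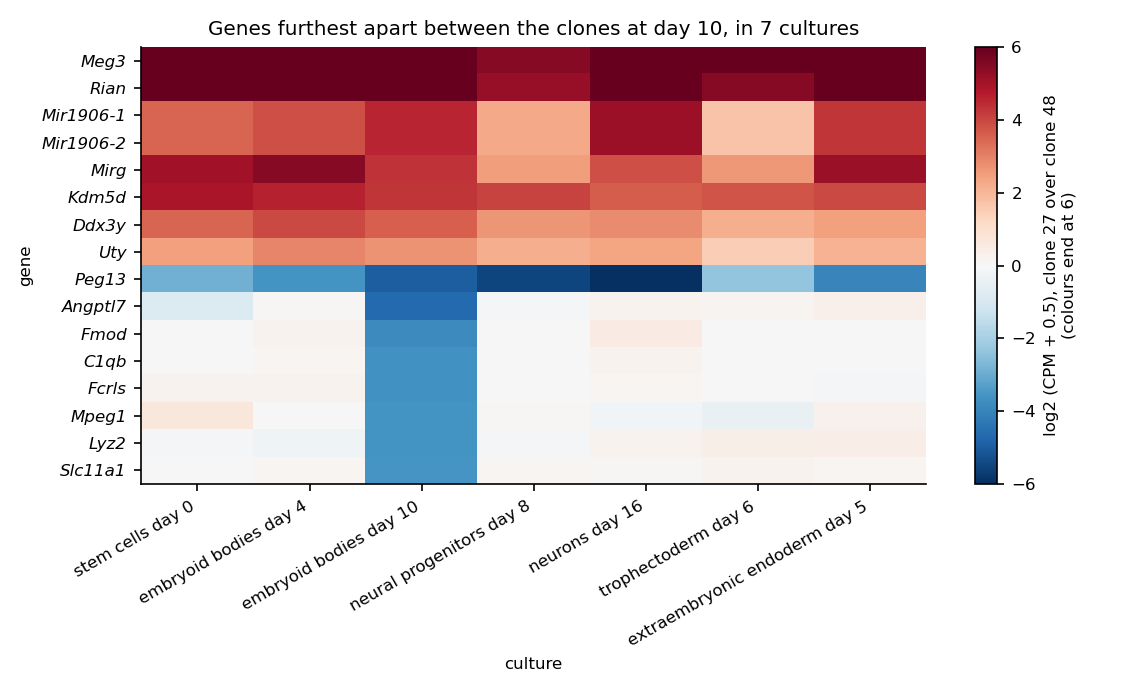
Colours give the log2 ratio of clone 27 to clone 48 (0.5 CPM added; colours end at 6 in either direction) for the 8 genes in each direction furthest apart at day 10 (rows) in 7 cultures (columns). Meg3, Rian, Mirg and the Y-linked genes are higher in clone 27 and Peg13 higher in clone 48 in all 7 columns, whereas the 7 genes below Peg13 are 2-fold apart in the day 10 column alone, 6 of them being under 1 CPM in both clones elsewhere; both Mir1906 rows hold the same reads, which lie within Meg3.

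The genes called on day 10 were then looked up on day 4 and day 0 of the same course, each with its own single flox library. Many were under the minimum before: 201 of the 571 lower genes and 165 of the 511 higher genes were under 1 CPM in all 3 libraries on day 4. Of 370 lower genes measured on day 4, 96 (25.9%) were lower there too, against 4.17% of all genes measured on both days, and they made up 17.4% of the genes lower on day 4; 10 were higher, against 0.937%. Of 346 higher genes measured on day 4, 23 (6.65%) were higher there and 42 (12.1%) lower. On day 0 the 226 measured lower genes were split, 24 (10.6%) being lower (background 1.94%) and 39 (17.3%) higher (background 4.23%). Of 258 measured higher genes 52 (20.2%) were higher on day 0 and 18 (6.98%) lower.

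On day 4 the sarcomere list had 7 of 15 measured genes lower and 0 higher, with a median of -0.87 in clone 27 and -1.27 in clone 48. Actc1 was already low in KI on day 4, at 45.5, 6.35 and 8.10 CPM, and Myl7 was at 20.3, 2.15 and 2.35 CPM, whereas Myh6 was at 3.83, 5.80 and 5.34 CPM there, not below flox. The cardiac transcription factors were further from flox on day 4 than on day 10, with 9 of 13 measured members lower and a median of -1.15 in clone 27 and -1.41 in clone 48: Hand1 was at 71.2, 2.47 and 2.85 CPM, Hand2 at 13.3, 3.11 and 2.26 CPM and Gata4 at 84.6, 39.2 and 35.2 CPM. On day 10 Hand1 and Hand2 were above flox in both clones. The endoderm factors lay below flox on day 4, with a median of -0.63 in clone 27 and -0.62 in clone 48: Sox17 was at 27.3, 17.9 and 13.4 CPM and Foxa2 at 25.4, 8.86 and 9.37 CPM. In flox both genes were lower on day 10 than on day 4, and in both clones they were higher. Col4a1 (334, 153 and 99.8 CPM) and Acta2 (102, 45.3 and 22.9 CPM) were likewise below flox in both clones on day 4. The difference between the days was not tested, since each day has 1 flox library.

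**Figure D5:**
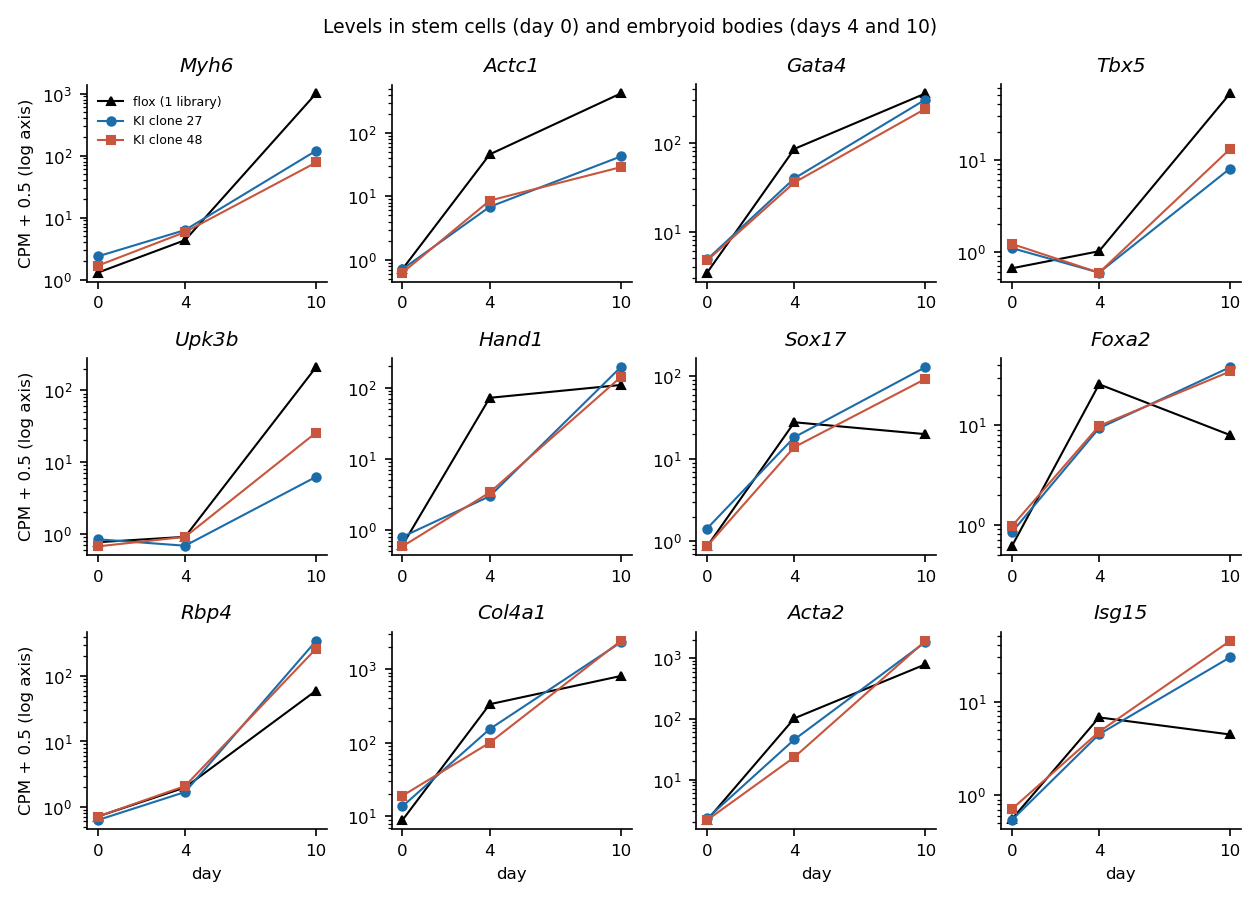
Level of 12 genes (y axis, CPM + 0.5, log axis) on days 0, 4 and 10 (x axis) in flox (triangles, 1 library per day), KI clone 27 (circles) and KI clone 48 (squares). Lines of the KI clones lie below flox on day 10 for Myh6, Actc1, Tbx5 and Upk3b, and those of Sox17, Foxa2, Col4a1 and Acta2 cross from below flox on day 4 to above it on day 10.

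The same flox and KI genotypes were grown in other cultures, with 2 libraries of flox and both clones in each. Neural cultures received retinoic acid from day 4, trophectoderm cultures were sampled on day 6 and carry Cdx2 in their titles, and extraembryonic endoderm cultures were sampled on day 5. A gene was counted where both clones were 2-fold from the mean of flox. Day 10 lower genes were lower again in neural progenitors on day 8 for 101 of 420 (24.0%, background 3.59%), in neurons on day 16 for 131 of 437 (30.0%, background 8.03%), in trophectoderm cultures for 101 of 382 (26.4%, background 6.2%) and in extraembryonic endoderm cultures for 66 of 366 (18%, background 3.57%). They made up 21.0%, 12.2%, 12.2% and 13.6% of the genes lower there. Day 10 higher genes were higher in the same 4 cultures for 22 of 321 (background 0.663%), 25 of 302 (background 0.396%), 100 of 376 (background 4.56%) and 66 of 421 (background 3.69%). These were shares of 6.85%, 8.28%, 26.6% and 15.7%. Day 10 higher genes that were lower there numbered 26 in neural progenitors (8.1%, background 3.59%), 43 in neurons (14.2%, background 8.03%), 36 in trophectoderm cultures (9.57%, background 6.2%) and 108 in extraembryonic endoderm cultures (25.7%, background 3.57%). Lower calls outnumbered higher calls over all genes in both neural cultures, at 482 against 89 and 1074 against 53. Day 10 lower genes that were higher numbered 10 in neural progenitors (2.38%, background 0.663%) and 2 in neurons (0.458%, background 0.396%). They numbered 23 in trophectoderm cultures (6.02%, background 4.56%) and 27 in extraembryonic endoderm cultures (7.38%, background 3.69%). These cultures use the same clones, so a difference that a clone always carries is counted in each.

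Which groups recurred varied between cultures, and these differences were not tested. The mesothelium list had 5 of 8 measured genes lower in neural progenitors, 6 of 9 in neurons, 4 of 8 in trophectoderm cultures and 2 of 9 in extraembryonic endoderm cultures, where 1 was higher; in embryos 1 of 8 was lower at E8.5 (median -0.32) and 1 of 9 higher at E9.5 (median 0.35). Hox paralog groups 9 to 13 had 4 of 6 genes higher and 1 lower in both neural cultures (medians 2.84 and 1.74), 6 of 12 higher in trophectoderm cultures (0.95) and 8 of 15 in extraembryonic endoderm cultures (1.26), with 0 lower in these 2. The lower calls of Hox groups 1 to 8 did not recur in this way. Those groups had 4 of 23 genes higher and 0 lower in neural progenitors (median 0.15), and 1 of 22 each way in neurons (-0.04). In trophectoderm cultures 4 of 19 were higher (0.67) and in extraembryonic endoderm cultures 7 of 23 (0.75), with 0 lower in either. Upk3b was low in KI neurons as well, at 0.0555 and 0.0668 CPM against 20.4 and 22.1 CPM in flox. The interferon list was higher in trophectoderm cultures at 11 of 11 genes, Isg15 being at 112 and 127 CPM in KI and 7.12 and 6.68 CPM in flox, while 0 of its 5 genes measured on day 4 were called. In extraembryonic endoderm cultures 5 of its 10 measured genes were higher and 0 lower (median 1.40), 2 of 4 were higher on day 0, in neural progenitors 0 of 6 were called, and in neurons 2 of 4 were lower and 0 higher (median -1.44). The endoderm lists went the other way in extraembryonic endoderm cultures: 8 of 12 measured endoderm transcription factors, 12 of 13 secreted proteins and 5 of 6 uptake genes were lower there and 0 higher, against 3.57% of all genes called lower. Apob was at 0 and 0.101 CPM in KI against 525 and 504 CPM in flox. Hnf4a was at 0.0938 and 0.101 CPM there in KI and at 27.1 and 25.9 CPM in flox.

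Whole embryos were the remaining comparison, with 3 Mll3flox/KI;Mll4flox/KI;Sox2-Cre embryos (KI) and 3 Mll3flox/KI;Mll4flox/+;Sox2-Cre embryos (control) at each of E8.5 and E9.5; Sox2-Cre acts in the epiblast and its descendants, not in extraembryonic tissue. Of the lower genes 14 of 466 were at least 2-fold below the control mean in all KI embryos at E8.5 (background 0.337%) and 28 of 494 at E9.5 (background 0.848%), and of the higher genes 15 of 376 (background 0.359%) and 25 of 371 (background 1.53%) were higher. The embryo comparisons called few genes in all, and the day 10 lower genes made up 30.4% of the genes lower at E8.5 and 23.9% at E9.5, the higher genes 30.6% and 11.8% of those higher. At E9.5, 41 of the 494 lower genes were higher in KI and 12 of the 371 higher genes lower. The titles also give the embryos numbers, shared by 1 KI and 1 control embryo for each of 3 numbers at E8.5 and by both groups for each of 2 numbers at E9.5; what the number stands for is not stated. With each KI embryo set against the controls of its own number, 10 of the lower genes were lower at E8.5 (background 0.234%) and 26 at E9.5 (background 0.848%), and 9 (background 0.154%) and 18 (background 1.43%) of the higher genes were higher. In the opposite direction, 2 of the lower genes were higher at E8.5 and 38 at E9.5, and 1 and 8 of the higher genes were lower. At E9.5 the sarcomere list had a median of 1.19, with 5 of 21 genes called higher and 0 lower, and against controls of the same number 8 of 21 and 0. Of the lists above flox on day 10, 5 of 17 secreted proteins of visceral endoderm (median 1.15) and 2 of 12 endoderm transcription factors (median 0.83) were called higher at E9.5 and 0 lower. The interferon list had 0 of 4 called (median -0.18), and Hox paralog groups 9 to 13 had 6 of 15 lower and 0 higher (median -0.93). At E8.5 the medians were 0.46 for the sarcomere, 0.22 for the endoderm transcription factors, -1.20 for the secreted proteins and 0.07 for the interferon list, with 0 genes of these lists called, while 4 of 12 genes of Hox groups 9 to 13 were higher and 0 lower (median 0.75). At E9.5 Myh6, a single member of the sarcomere list, was at 438, 318 and 208 CPM in the KI embryos and 133, 133 and 102 CPM in the controls.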

How the data were processed

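Embryoid body RNA of 1 flox and 2 KI libraries on day 10 was compared. Per the labels' protocols, poly(A) RNA was made into libraries with a kit for double-stranded cDNA. Per the submitters' processing notes the reads were processed with bcl2fastq, Bowtie2, STAR and SICER 1.1 and build mm9, with no role given for each; the counter and its use of strand are not given in the sources used here. The deposited tables hold whole-number read counts and RPKM, made by the authors, for each of 29082 RefSeq transcripts. The deposited RPKM values were used for levels per length only.

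Transcripts were matched to symbols by accession (28436 matched; the other 646 held 1.39% to 1.50% of the reads and were left out), and the transcript with most reads over all 37 tables stood for a gene, which kept 70.5% to 71.6% of the reads. CPM, ratios with 0.5 CPM added, the minimum of 1 CPM in 1 library and the 2-fold rule in both clones were computed with Python 3.11.15, pandas 2.3.3 and numpy 2.4.6; the rule was tested on simulated data. TMM factors came from edgeR 4.0.16 and size factors from DESeq2 1.42.0 (R 4.3.3), as alternatives only. No test was run. Intervals are exact (Clopper-Pearson, scipy 1.17.1) and cover counting error only. Named were the 12 genes per direction with the largest smaller ratio among called genes with 5 CPM, the 8 per direction with the largest ratio between clones, and from each list called members (up to 6), the 4 most abundant and those with opposite clones; members named beyond this were chosen after their values were seen. Counts over lists include members that are not reported by name here. The gene lists and the genes were chosen with earlier results of these data known.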

Additional observations from a re-analysis of the deposited data

Results flagged for a closer look

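Some gene groups lay on opposite sides of flox on day 10 and in another culture of the same clones; the difference itself was not tested, because day 10 and day 4 have 1 flox library each. List medians were compared where both clones were at least 0.5 on the log2 scale from flox in both cultures and at least 5 members were measured, with day 4 and the extraembryonic endoderm culture only. The endoderm transcription factors were above flox on day 10 and below it on day 4 (mean of the clone medians, day 10 minus day 4, 2.54 on the log2 scale), and so were the gut and lung epithelium genes (2.87). Against the extraembryonic endoderm culture the differences were 4.38 for the endoderm transcription factors, 4.84 for the visceral endoderm secreted proteins, 5.04 for the visceral endoderm uptake genes and 2.46 for the general pluripotency genes, all above flox on day 10 and below it there. The other cultures were not part of that comparison. Their medians for the endoderm transcription factors and the secreted proteins were -0.84 and -0.65 in neural progenitors, -1.93 and -1.20 in neurons (4 genes measured of each list) and 0.05 and -0.45 in trophectoderm cultures.

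Among single genes, 15 genes given here were at least 2-fold above flox on day 10 and at least 2-fold below it on day 4 in both clones. The day 10 minus day 4 differences, as means of the clones on the log2 scale, were 3.62 for Foxa2, 4.88 for Vil1 and 5.58 for Pga5 among endoderm and gut genes. For genes known from visceral endoderm or yolk sac they were 4.48 for Spink1, 3.30 for Cyp26a1, 3.63 for Slc39a8, 2.95 for Ctsh and 6.16 for Cited1. The basement membrane genes Col4a1 (2.98), Col4a2 (2.86) and Lama1 (4.80) and the smooth muscle genes Acta2 (2.90) and Myh11 (3.39) had the same order, as had the Notch ligand gene Dll1 (3.72) and the imprinted gene Phlda2 (2.73). The neural genes Sox1 (-3.22), En2 (-2.69) and Dcx (-3.09) went the other way, above flox on day 4 and below it on day 10.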

How the results depend on the processing

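No paired analysis was possible because the day 10 results come from no test and flox has 1 library on day 10. Shares are of the genes measured under each setting. With 2 CPM added in place of 0.5, 303 genes (2.08%) were called higher and 324 (2.22%) lower, 393 (2.69%) were 2-fold apart between the clones, and the medians (mean of the clones, log2) were -2.39 for the sarcomere, -1.83 for the mesothelium, 1.49 for the endoderm transcription factors, 1.36 for the visceral endoderm secreted proteins and 1.87 for the interferon list. With 0.1 CPM added the mesothelium median was -2.82, and with all transcripts of a gene summed it was -2.34. A minimum of 5 CPM left 371 genes (3.03%) higher, 362 (2.96%) lower and 462 (3.78%) apart, so that higher calls were no longer the fewer. At 1.5-fold 7.01% of genes were higher and 7.64% lower, at 4-fold 0.747% and 0.857%; these settings change the limit itself. With 1 clone left out, the higher calls ran from 4.95% (without clone 48) to 6.03% (without clone 27) and the lower calls from 5.00% (without clone 27) to 7.61% (without clone 48), and the medians from -2.76 to -2.42 for the sarcomere, from -2.62 to -2.39 for the mesothelium and from 1.40 to 1.43 for the visceral endoderm secreted proteins. None of these medians changed sign under these settings. Setting each KI embryo against the controls of its own title number, an alternative chosen after the data were seen, moved the day 10 higher genes that were higher at E8.5 from 15 to 9. TMM scaling kept 507 of the 511 higher and 571 of the 571 lower calls, and DESeq2's size factors 509 and 571. Genes with few reads in flox, such as the posterior Hox genes, have ratios that depend on the CPM added, and the single flox library limits the precision of every ratio.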
